A study of Mus musculus with 6 samples.

Results

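Integrins are the receptors with which T cells hold on to other cells and to matrix, and the genes for their chains, for the ICAM ligands of the leukocyte integrins and for the proteins that bind integrin tails were examined in Th1 cells treated with ALX-5407. Genes were taken by name from the deposited count file. They comprised the integrin α chains (18 genes), the integrin β chains (8 genes), the ligands Icam1, Icam2 and Icam4, and the adaptors Tln1, Tln2, Fermt1, Fermt2, Fermt3, Vcl and Rap1a. This gave 36 of the 54532 genes in the file, all protein-coding.

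CD4+ T cells were isolated by magnetic beads (negative selection) from spleens of male C57BL/6 mice aged 6 to 8 weeks. They were activated on plates coated with anti-CD3ϵ, together with anti-CD28, IL-2, IL-12p70 and anti-IL-4, the conditions that direct these cells to the Th1 fate. In 3 cultures the medium held 500 nM ALX-5407, which blocks glycine uptake through the transporter GlyT1. For the 3 control cultures the methods of the study give vehicle (0.1% DMSO), whereas its results speak of untreated controls. The sample titles name no vehicle, and the figures here call these cultures vehicle. Apart from ALX-5407, the labels gave no difference between the groups. The labels give 72 h for the treatment, whereas the methods of the study give 24 h, and the sample titles number the cultures of each group as biological replicates 1 to 3. Whether these came from different mice or from pooled cells is not given in the sources used here, and p-values measure the spread between these cultures.

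Each integrin is a pair of 1 α and 1 β chain, and the chains present in a cell decide which ligands it can bind. In resting T cells integrins are bent and bind weakly. Signals from the T cell receptor and chemokine receptors act through the GTPase RAP1, and talin and kindlin then bind the β tail and open the receptor. LFA-1, the pair of the Itgal and Itgb2 chains, binds ICAMs and holds T cells to antigen-presenting cells and vessel walls.

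Library totals ranged from 30801753 to 36727788 counts, and 15938 genes passed the filter on low counts and were tested. Levels are given as CPM, the counts of a gene relative to its library total after TMM scaling, on the usual per-megacount scale. The groups were tested against each other with the quasi-likelihood method of edgeR, and p-values were adjusted over the 15938 genes by Benjamini-Hochberg. A gene was called at an adjusted p-value under 0.05, and a called gene with an absolute log2 fold change over 1 was a DEG. Exact permutation of 3 against 3 cultures reaches 0.1 at the smallest, so all p-values come from this fit across genes. The CD4 T cell list (Cd3d, Cd3e, Cd3g, Cd4 and 6 others) was present in full, at a summed 3508 to 3967 CPM in every culture. Of that list 2 genes were called higher and 5 lower. Lists for other cells were far lower, at 79.2 to 88.4 CPM for B cells (4 genes called higher and 1 lower) and at most 0.91 CPM for red cells. The CD8 T cell list summed to 9.25 to 9.59 CPM in controls and 6.71 to 8.87 CPM in treated cultures. The NK cell list summed to 8.07 to 8.77 CPM in controls and 4.25 to 7.47 CPM in treated cultures. In both lists 1 gene was called lower and 0 higher. Most of the B cell sum was Ighm, with 1646 to 1916 counts in controls and 2145 to 2419 in treated cultures. Ebf1 went from 492 to 609 counts in controls to 166 to 237 in treated cultures. Cd79a, Ms4a1, Pax5 and Cd22 had more counts in every treated culture than in any control. In bulk cultures, fewer cells with a transcript and less of it per cell cannot be told apart.

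In ALX-5407-treated cells the transcripts of the leukocyte integrin LFA-1 and of talin rose, while those of the laminin-binding chains Itga7 and Itga3 and of the β chains Itgb1, Itgb3 and Itgb8 fell. Of the 36 genes, 27 passed the filter, and 19 of these were called, 13 higher and 6 lower. Among all genes tested, 47.7% were called, 24.5% higher and 23.2% lower. The share called was thus 70.4% of the 27 genes, with 48.1% higher and 22.2% lower. The median log2 fold change was 0.33 over the 27 genes and 0.0053 over all genes tested. Among the 27 genes, 1 was a DEG upward (Itga9) and 2 were DEGs downward (Itga7 and Itga3), against 3.36% and 6.68% of all genes. The upward count was 0 with DESeq2, 0 with a filter of at least 1 CPM in 3 cultures, 0 without the second Th1 or the second ALX-5407 replicate, and 2 without the third ALX-5407 replicate. The CPM values of the 3 treated and the 3 control cultures did not overlap for 14 genes in the upward and 6 in the downward direction. The same held for 28.4% and 27.1% of all genes tested.

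**Figure D1:**
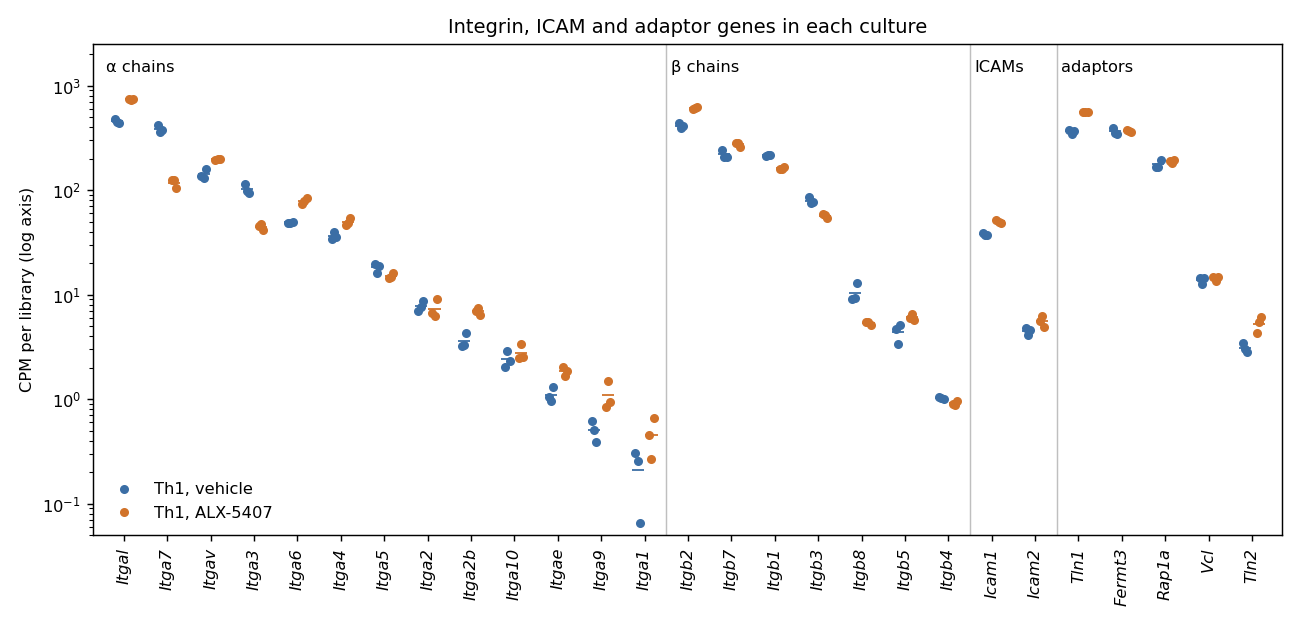
CPM of the 27 tested genes in each culture on a log axis, by role, with points for the 3 vehicle (blue) and 3 ALX-5407 cultures (orange) and lines for the group means. Itgal, Itgb2 and Tln1 lie higher in every treated culture and Itga7 and Itga3 lower, while the points of Fermt3 and Vcl overlap.

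Per kilobase of deposited gene length, the chains of LFA-1 were the most abundant of their kind, but with principal transcript lengths Itga7 exceeded Itgal in controls. Itgal (ENSMUSG00000030830, chromosome 7, 127296260 to 127335138, GRCm38) encodes the αL chain. Its level was 479, 449 and 435 CPM in the control cultures and 744, 733 and 751 CPM with ALX-5407. Each treated culture lay well above each control. The log2 fold change was 0.71 (SE 0.0692, adjusted p = 4.99e-07 from edgeR). Itgb2 (chromosome 10, 77530252 to 77565708), the β chain that LFA-1 shares with the integrins of Itgam, Itgax and Itgad, went from 440, 390 and 410 CPM to 592, 615 and 621 CPM. The groups did not overlap, and the log2 fold change was 0.56 (SE 0.0713, adjusted p = 8.00e-06 from edgeR). CPM take no account of gene length, so the levels of different chains were compared per kilobase. Per kilobase of deposited gene length, Itgal stood at 0.512 ± 0.0213 of the Itgb2 level in controls and at 0.567 ± 0.0157 with ALX-5407 (SD, n = 3 each).

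The other α chains that pair with Itgb2 were nearly absent. Itgam, the αM chain of macrophages and granulocytes, had 9, 2 and 12 counts in the control cultures and 6, 6 and 0 with ALX-5407. Itgax, the αX chain typical of dendritic cells, had at most 8 counts, and Itgad, the αD chain, at most 2. These 3 genes lie together on chromosome 7, with 11.1 and 3.72 kb between neighbours, about 728 kb from Itgal. None of them passed the filter. Exons of the gene model Gm49368, which had no count, cover 68.7% of the exon bases of Itgam, and how reads in shared exons were handled is not stated. Of 12 markers of macrophages, monocytes and dendritic cells, Siglech, Marco and C1qa had no count, and the summed level of the list was 16.2 to 21.9 CPM in controls and 6.06 to 6.99 CPM in treated cultures. Most of that sum was Cd68, a lysosomal protein of macrophages that other cells also hold, with 454 to 649 counts in controls and 178 to 210 in treated cultures. Cd68 fell while Itgal and Itgb2 rose. The part of macrophages, monocytes and dendritic cells in the Itgal and Itgb2 results was not tested.

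Itga7 and Itga3 showed the largest decreases. With Itgb1 both chains form laminin receptors, of which the Itga7 one is best known from skeletal muscle. Itga7 (ENSMUSG00000025348, chromosome 10, 128933818 to 128958282) had 13574, 11297 and 11666 counts in the control cultures, so that its presence rests on deep coverage. Its level was 417, 360 and 379 CPM in controls and 124, 124 and 104 CPM with ALX-5407. The treated cultures held less than the lowest control by a wide margin. The log2 fold change was -1.72 (SE 0.0863, adjusted p = 4.73e-10 from edgeR). Itga3 (chromosome 11, 95044474 to 95076801) went from 113, 97.2 and 94.6 CPM to 44.9, 47.3 and 41.8 CPM, again without overlap. Its log2 fold change was -1.19 (SE 0.085, adjusted p = 1.91e-08 from edgeR). Itga6, the third laminin-binding chain, moved the other way. It stood at 48.8, 48.7 and 49.7 CPM in controls and at 73.8, 79.5 and 84.7 CPM in treated cultures, with no overlap and a log2 fold change of 0.69 (SE 0.0755, adjusted p = 1.64e-06 from edgeR). The 3 laminin-binding chains therefore moved in both directions, and the Itga6 level per kilobase went from 0.115 ± 0.0085 to 0.613 ± 0.106 of that of Itga7 (SD, n = 3 each). Some markers of other cells fell as Itga7 and Itga3 did. The neutrophil list summed to 69.9 to 75.3 CPM in controls and 24.2 to 31.6 CPM in treated cultures, nearly all of it Ly6g, and S100a8, S100a9 and Elane had no count. The stroma and endothelium list summed to 75.5 to 84.6 CPM and 63.3 to 67.1 CPM, mostly Pecam1, with Cdh5 and Pdgfra at 0. Of that list 1 gene was called higher and 1 lower. Pdgfrb moved the other way, from 9, 5 and 2 counts in controls to 26, 21 and 16 in treated cultures. The part of such cells in the decreases was not tested.

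**Figure D2:**
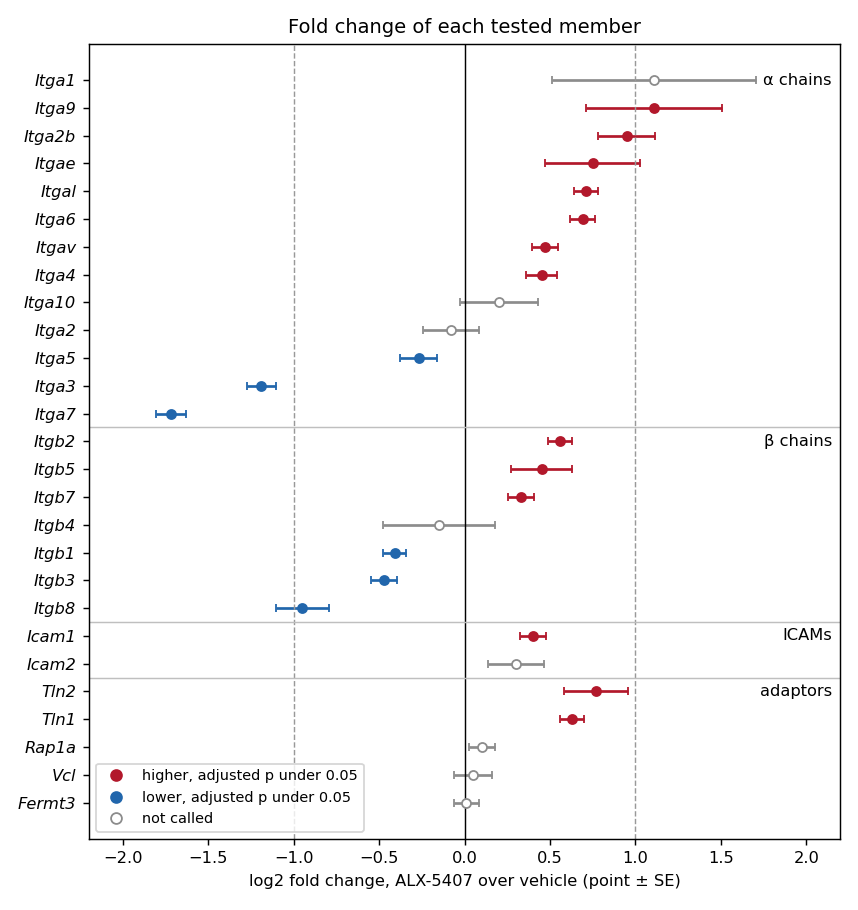
Log2 fold change of each tested gene, ALX-5407 over vehicle, with its standard error, by role. Red and blue points had an adjusted p-value under 0.05, open points did not, and dashed lines mark a log2 fold change of 1 in each direction. The α chains span from Itga7 at -1.72 to Itga9 at 1.11, and the β chains from Itgb8 at -0.95 to Itgb2 at 0.56.

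Among the β chains, Itgb2 and Itgb7 rose and Itgb1, Itgb3 and Itgb8 fell. Itgb1 (chromosome 8, 128685654 to 128733200) encodes the partner of most α chains that bind matrix. Its level was 210, 216 and 218 CPM in controls and 161, 158 and 166 CPM with ALX-5407. The spread within each group was small beside this difference, and the log2 fold change was -0.41 (SE 0.0669, adjusted p = 1.04e-04 from edgeR). Itgb3, which pairs with the αv chain and, in platelets, with the Itga2b chain, went from 85.2, 75.5 and 76.3 CPM to 59.0, 57.8 and 54.6 CPM. The groups did not overlap, with a log2 fold change of -0.47 (SE 0.0762, adjusted p = 9.71e-05 from edgeR). Itgb8, whose pair with the αv chain releases active TGF-β from its latent form, was low, at 9.12, 9.22 and 12.9 CPM in controls and 5.52, 5.52 and 5.11 CPM with ALX-5407. Its log2 fold change was -0.95 (SE 0.156, adjusted p = 1.05e-04 from edgeR), just short of the fold change that defines a DEG.

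Itgb7 (chromosome 15, 102215995 to 102231944) encodes the β chain of the gut-homing receptor with Itga4 and of the E-cadherin receptor with Itgae. It rose from 243, 208 and 206 CPM to 284, 281 and 261 CPM. The lowest treated culture exceeded the highest control by less than the spread within the controls, and the log2 fold change was 0.33 (SE 0.0786, adjusted p = 0.00246 from edgeR). Itgb5, another partner of the αv chain, had 4.73, 3.38 and 5.17 CPM in controls and 5.98, 6.54 and 5.68 CPM in treated cultures. Its log2 fold change was 0.45 (SE 0.177, adjusted p = 0.0439 from edgeR), but the call was lost in 8 of 13 alternative analyses, and without the second Th1 replicate the log2 fold change was 0.28 (adjusted p = 0.223 from edgeR). Itgb4, which pairs with Itga6 in the hemidesmosomes of epithelia, had 31 to 34 counts in every culture, or 1.01 to 1.04 CPM in controls and 0.885 to 0.97 CPM in treated cultures. The difference was not called (log2 fold change -0.15, SE 0.33, adjusted p = 0.735 from edgeR). Itgb6, an epithelial chain, had at most 4 counts.

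The α chains Itgav and Itga4, which can both pair with Itgb1, rose while Itgb1 fell. Itgav (chromosome 2, 83724397 to 83806916) encodes the αv chain, which binds the RGD motif of fibronectin, vitronectin and latent TGF-β. It went from 136, 132 and 159 CPM to 192, 199 and 200.0 CPM, a log2 fold change of 0.47 (SE 0.0784, adjusted p = 1.23e-04 from edgeR). Itga4 (chromosome 2, 79255426 to 79333123), the chain that binds VCAM-1 and MAdCAM-1, went from 33.8, 39.4 and 35.7 CPM to 45.9, 48.1 and 54.7 CPM, a log2 fold change of 0.45 (SE 0.0894, adjusted p = 5.89e-04 from edgeR). In neither gene did the groups overlap. Exons of Cerkl on the opposite strand cover 8.04% of the exon bases of Itga4, and Cerkl had 32 to 66 counts against 1099 to 1916 of Itga4. Exons of Gm13684 on the opposite strand cover 5.90% of those of Itgav. Gm13684 had 112 to 154 counts in controls and 79 to 106 in treated cultures. In both genes, reads in the shared bases may have been left uncounted if strand was not used. Itga6, Itga4 and Itgav all lie on chromosome 2, megabases apart.

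The bases before the start sites of these 3 genes are shown because their transcripts can form shared pairs yet moved in opposite directions, and because RefSeq and GENCODE M21 place their starts at the same base. The sequences come from RefSeq on GRCm38.p6, run 5′ to 3′ on the strand of the gene and end just before the start. Capitals mark matches, on either strand, to GGAAGT (the core bound by ETS factors), TGTGGT (bound by RUNX factors) and GGGCGG (the GC box bound by SP factors). The windows are chr2:83724147-83724396 for Itgav, chr2:79255176-79255425 for Itga4 and chr8:128685404-128685653 for Itgb1, all on the + strand.
Itgav, rose: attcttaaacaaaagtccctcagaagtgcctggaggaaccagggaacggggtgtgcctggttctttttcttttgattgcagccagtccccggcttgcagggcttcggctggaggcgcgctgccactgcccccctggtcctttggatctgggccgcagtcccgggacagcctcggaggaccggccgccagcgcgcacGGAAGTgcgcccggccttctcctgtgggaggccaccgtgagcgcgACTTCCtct
Itga4, rose: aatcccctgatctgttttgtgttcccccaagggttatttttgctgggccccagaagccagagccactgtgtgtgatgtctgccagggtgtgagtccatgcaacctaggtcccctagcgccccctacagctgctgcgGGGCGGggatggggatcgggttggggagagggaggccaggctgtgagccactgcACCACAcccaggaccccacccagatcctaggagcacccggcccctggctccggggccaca
Itgb1, fell: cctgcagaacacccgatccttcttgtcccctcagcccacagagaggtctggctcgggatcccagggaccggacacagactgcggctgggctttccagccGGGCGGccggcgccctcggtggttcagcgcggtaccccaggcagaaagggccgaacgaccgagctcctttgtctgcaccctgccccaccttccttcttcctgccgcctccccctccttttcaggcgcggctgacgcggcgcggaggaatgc

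The Itgav window held 2 matches to GGAAGT, the Itga4 window 1 match each to TGTGGT and GGGCGG, and the Itgb1 window 1 match to GGGCGG. In the 300-base RefSeq windows (250 bases before to 50 after the start), entries matched 25 of the 36 genes. Among the 8 genes called higher that had an entry, 4 held GGAAGT (Itgav, Itga2b, Itgb7 and Tln1), and 0 of the 4 called lower did (Itga3, Itga5, Itgb1 and Itgb8). The matches of Itga2b and Tln1 lay after their GENCODE M21 starts, which are upstream of the RefSeq starts. That of Itgb7 lay after its RefSeq start, so of these genes only Itgav held GGAAGT before both starts. Of the 27 windows of the 25 genes, 9 held GGAAGT. They included windows of Itga1, which was not called, and of Fermt1, Itga11, Itgax and Itgb6, which did not pass the filter. GGAAGT was present in 23.8% of all 32851 windows, TGTGGT in 16.8% and GGGCGG in 35.7%. GGGCGG was found in 4 of the 8 genes called higher and in 3 of the 4 called lower. The AP-1 motif TGANTCA (7.81% of all windows) matched, among the called genes, only windows of Itga9 and Itga3 that lie kilobases away from their GENCODE M21 starts. TATAAA (13.6%) matched only Icam1 among the called genes, and the E-box CACGTG (7.15%) matched 0 of the windows of the 25 genes. Itgal, Itgb2, Itga6 and Itga7 were among the genes with no entry. These matches describe letters in a window and do not show binding.

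Itga5, Itgae and Itga9 were called with little margin. Itga5, the classical fibronectin receptor chain, had 19.6, 16.04 and 18.98 CPM in controls and 14.4, 14.7 and 16.1 CPM with ALX-5407. The groups overlapped by a narrow margin. The log2 fold change of -0.27 (SE 0.11) had an adjusted p of 0.0497 from edgeR, and the call was lost in 8 of 13 alternative analyses, among them leaving out any 1 culture other than the second Th1 replicate, with adjusted p-values up to 0.161. Itgae, the αE chain (CD103) of T cells in epithelia, had 34, 30 and 40 counts in controls and 72, 62 and 65 with ALX-5407, which is 0.957 to 1.30 CPM against 1.66 to 2.04 CPM. Its log2 fold change was 0.75 (SE 0.278, adjusted p = 0.0354 from edgeR). This call was lost in 6 of 13 alternatives, and it fell to 0.65 (adjusted p = 0.12 from edgeR) without the second Th1 replicate. Itga9, a partner of Itgb1 that binds tenascin and VCAM-1, had 20, 16 and 12 counts in controls and 30, 56 and 33 with ALX-5407. Its log2 fold change of 1.11 (SE 0.397, adjusted p = 0.029 from edgeR) ranged from 0.83 to 1.27 across alternatives. Without the second ALX-5407 replicate it was 0.83 (adjusted p = 0.164 from edgeR), without the third Th1 replicate 0.95 (adjusted p = 0.0917 from edgeR), and without the second Th1 replicate 1.11 (adjusted p = 0.0742 from edgeR).

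Of the 4 collagen-binding chains, Itga2 and Itga10 were tested at low levels, Itga1 at the edge of detection, and Itga11 did not pass the filter. Itga2 had 6.91, 7.66 and 8.77 CPM in controls and 6.66, 6.30 and 9.07 CPM with ALX-5407. The groups overlapped, with a log2 fold change of -0.08 (SE 0.162, adjusted p = 0.704 from edgeR). Itga10 had 66 to 91 counts in controls and 87 to 125 in treated cultures, and its CPM overlapped (log2 fold change 0.20, SE 0.227, adjusted p = 0.495 from edgeR). The gene model Gm42957 covers 33.5% of its exon bases on the same strand and had at most 3 counts, so that reads there may have been left uncounted. Itga1 had 10, 8 and 2 counts in controls and 16, 10 and 23 with ALX-5407. A log2 fold change of 1.11 with an SE of 0.596 (adjusted p = 0.141 from edgeR) leaves the size of any difference undetermined at this depth. Itga11 had at most 6 counts and Itga8, a kidney and muscle chain that binds nephronectin, at most 4.

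Itga2b, the αIIb chain of the platelet fibrinogen receptor and a marker of megakaryocytes, was low in these cells but higher with ALX-5407. It had 106, 104 and 131 counts in controls and 247, 279 and 224 in treated cultures, or 3.26, 3.32 and 4.26 CPM against 6.995, 7.48 and 6.39 CPM. The groups were well apart, and the log2 fold change was 0.95 (SE 0.167, adjusted p = 2.00e-04 from edgeR). Some other platelet transcripts rose as well. The 6 platelet and megakaryocyte markers summed to 1.69 to 2.23 CPM in controls and 3.82 to 5.25 CPM in treated cultures, none of them was at 0 in every culture, 3 were tested, and of these Pf4 and Gp1ba were called higher. Pf4 had 6, 21 and 19 counts in controls and 64, 76 and 31 with ALX-5407, and Gp1ba had 39, 29 and 25 against 89, 72 and 69. The counts of Ppbp overlapped between the groups (9, 13 and 4 against 11, 33 and 17), as did those of Gp6 (4, 1 and 0 against 2, 6 and 0). The part of platelet RNA in the Itga2b result was not tested. Itgb3, the β chain of the same platelet receptor, fell.

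**Figure D3:**
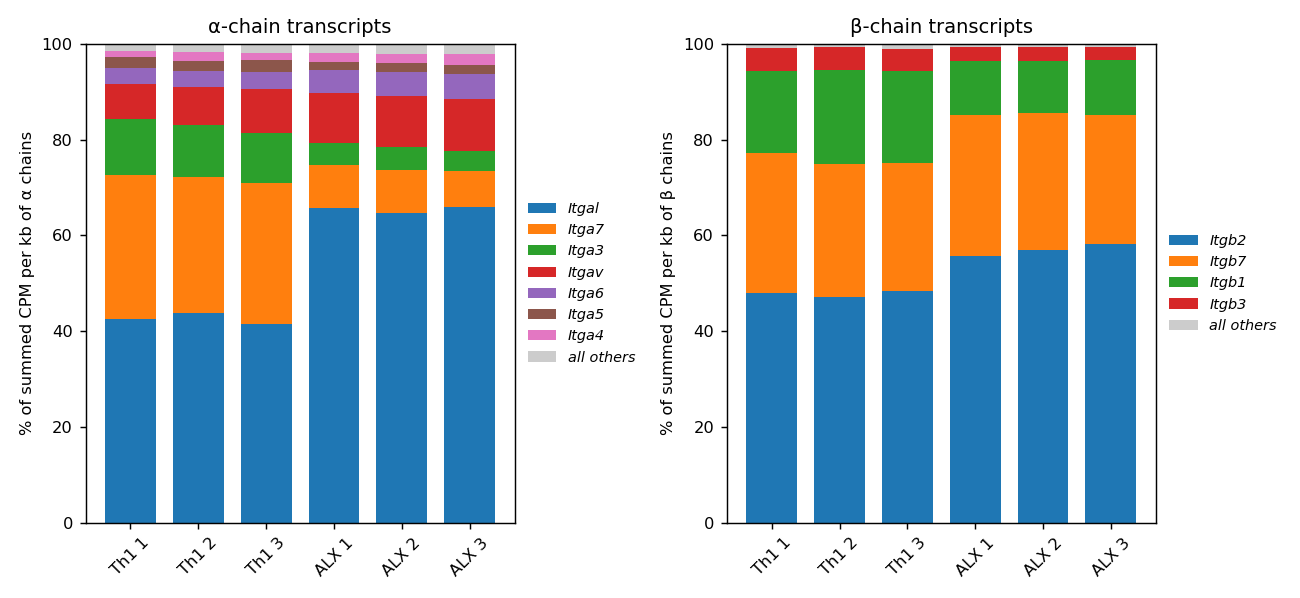
Share of each chain in the summed CPM per kilobase of all α chains (left) and all β chains (right) in each culture. Itgal grows from 41.6% to 43.7% of the α sum in the controls to 64.7% to 66.0% in the treated cultures, Itga7 shrinks from 28.5% to 30.1% to 7.40% to 8.93%, and Itgb1 shrinks from 17.2% to 19.6% to 10.96% to 11.7% of the β sum.

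Levels per kilobase show how the make-up of the chains differed. Itgal made up 42.7 ± 1.06% of the summed α chain level in controls and 65.5 ± 0.708% with ALX-5407 (SD, n = 3 each). Itga7 went from 29.3 ± 0.799% to 8.41 ± 0.873% and Itga3 from 10.97 ± 0.606% to 4.53 ± 0.293%. In controls the order of the α chains was Itgal, Itga7, Itga3, Itgav, Itga6 and Itga5, and with ALX-5407 it was Itgal, Itgav, Itga7, Itga6, Itga3 and Itga4. Among these neighbours, only the shares of Itga6 and Itga3 in treated cultures overlapped. The summed α level differed little, at 156 to 171 CPM per kilobase in controls and 172 to 173 in treated cultures. The order depends on the length used. The deposited lengths equal the merged exons of a gene in GENCODE M21 for 35 of the 36 genes (all but Fermt3), and with the length of the principal transcript in GENCODE M21 instead, Itga7 came first in controls (38.9% of the α sum against 35.4% for Itgal), and Itga7 and Itgav were close in treated cells (12.2% and 11.6%). The α sums then overlapped between groups. The direction of each share of Itgal, Itga7 and Itga3 was the same with either length.

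The order of the β chains was Itgb2, Itgb7, Itgb1, Itgb3, Itgb5 and Itgb8 in both groups and with either length, although Itgb5 and Itgb8 overlapped in controls. Itgb2 held 47.8 ± 0.564% of the summed β level in controls and 56.9 ± 1.22% with ALX-5407. Itgb1 went from 18.7 ± 1.32% to 11.3 ± 0.346% and Itgb3 from 4.73 ± 0.0801% to 2.76 ± 0.115%, while the share of Itgb7 overlapped between the groups (27.9 ± 1.24% and 28.3 ± 1.28%, SD, n = 3 each). The summed β level was 270 to 300 CPM per kilobase in controls and 348 to 354 in treated cultures.

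Ratios between chains were read in each culture, first between β chains and then between chains that can pair. Itgb2 stood at 2.80, 2.41 and 2.51 times the Itgb1 level per kilobase in controls and at 4.92, 5.19 and 4.99 times with ALX-5407. Itga7 stood at 1.00, 0.84 and 0.877 times the Itgb1 level in controls and at 0.39, 0.395 and 0.314 times in treated cells. With principal transcript lengths these ratios were 1.89, 1.58 and 1.65 in controls and 0.735, 0.745 and 0.593 with ALX-5407. The ratio of Itgav to Itgb3 went from 0.878, 0.957 and 1.14 to 1.79, 1.89 and 2.01. These ratios separated the groups without overlap. The ratio of Itga4 to Itgb7 was 0.0331 ± 0.00512 and 0.0358 ± 0.00498 (SD, n = 3 each), and that of Itga5 to Itgb1 was 0.0702 ± 0.00805 and 0.0769 ± 0.003, with overlap in both. RNA levels do not give the amount of receptor on the cell surface.

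**Figure D4:**
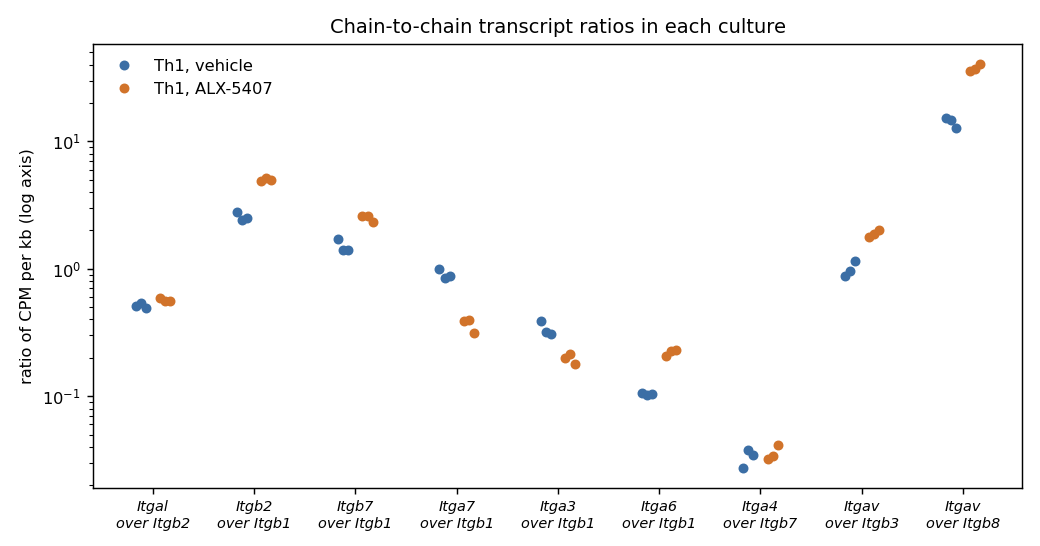
Ratio of CPM per kilobase between pairs of chains in each culture on a log axis, vehicle in blue and ALX-5407 in orange. Itgb2 over Itgb1 lies at 2.41 to 2.80 in controls and 4.92 to 5.19 with ALX-5407, Itga7 over Itgb1 moves down, and Itga4 over Itgb7 overlaps between the groups.

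Among the ligands of LFA-1, Icam1 rose. ICAM-1 is induced on activated lymphocytes and on antigen-presenting cells. Icam1 (chromosome 9, 21015985 to 21028817) had 39.1, 37.3 and 37.5 CPM in controls and 52.1, 49.3 and 48.9 CPM with ALX-5407. The groups did not overlap, and the log2 fold change was 0.40 (SE 0.0761, adjusted p = 3.84e-04 from edgeR). Icam2, expressed at rest on lymphocytes and endothelium, had 4.79, 4.15 and 4.61 CPM in controls and 5.58, 6.19 and 4.91 CPM in treated cultures. Its values did not overlap, yet the difference was not called (log2 fold change 0.30, SE 0.163, adjusted p = 0.145 from edgeR). Icam4, the red cell ICAM that begins 555 bases after the end of Icam1, had no count in any culture. Its exon bases are all covered by Gm47079 on the other strand, which had at most 5 counts, so that reads there may have been left uncounted. A count of 0 allows up to 3 counts per library, or 0.0801 to 0.0974 CPM, for counting error only.

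Both talin genes rose, whereas Fermt3, Vcl and Rap1a were not called. Tln1 (chromosome 4, 43531519 to 43562691) encodes talin-1, which links the β tail to actin. Its level was 379, 345 and 369 CPM in controls and 564, 560 and 562 CPM with ALX-5407, and the treated cultures were almost identical. The log2 fold change was 0.63 (SE 0.0689, adjusted p = 1.85e-06 from edgeR). Exons of Creb3 on the other strand cover 3.67% of its exon bases, and Creb3 counts were lower in the treated cultures (861 to 952) than in controls (1009 to 1080). Tln2, the second talin, was far lower, with 111, 95 and 87 counts in controls and 153, 203 and 213 with ALX-5407. Its log2 fold change was 0.77 (SE 0.186, adjusted p = 0.00265 from edgeR).

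Fermt3, the kindlin of blood cells, was abundant, at 394, 353 and 345 CPM in controls and 373, 369 and 358 CPM in treated cultures. The groups overlapped, and the log2 fold change was 0.01 (SE 0.0723, adjusted p = 0.924 from edgeR), with a sign that varied between analyses. Per kilobase, Tln1 went from 0.265 ± 0.0154 to 0.405 ± 0.00865 of the Fermt3 level (SD, n = 3 each). The deposited length of Fermt3 is shorter than its merged exons (2587 against 5784 bases), unlike that of Tln1. With principal transcript lengths for both genes the ratio went from 0.309 ± 0.0179 to 0.473 ± 0.0101. Fermt2, the kindlin of most other tissues, had 2, 6 and 10 counts in controls and 0 in every treated culture, and Fermt1, the epithelial kindlin, had at most 2. Neither passed the filter. Rap1a, 1 of the 2 genes for the RAP1 GTPase, had 167, 168 and 193 CPM in controls and 190, 183 and 194 CPM with ALX-5407 (log2 fold change 0.10, SE 0.0748, adjusted p = 0.295 from edgeR). Vcl, vinculin, had 14.5, 12.7 and 14.5 CPM against 14.9, 13.4 and 14.7 CPM (log2 fold change 0.05, SE 0.11, adjusted p = 0.756 from edgeR). Exons of Ap3m1 on the other strand cover 25.5% of the Vcl exon bases, and Ap3m1 had 2409 to 3779 counts, so that the Vcl count is uncertain if strand was not used.

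The genes around the integrins were read from 4 lists compiled from general knowledge. In the list of inside-out activation and tail-binding proteins, 36 of 39 genes were tested, 16 were higher and 7 lower, with a median log2 fold change of 0.15. In all, 63.9% of the tested genes of this list were called, against 47.7% of all genes tested (24.5% higher and 23.2% lower). Rasgrp1, an exchange factor that acts downstream of the T cell receptor, rose from 138, 139 and 141 CPM to 222, 242 and 255 CPM (log2 fold change 0.78, SE 0.072, adjusted p = 2.70e-07 from edgeR). Rassf5, whose RAPL form carries active RAP1 to LFA-1, rose by a log2 fold change of 0.73, and Sipa1l3, of a family of RAP1 inactivators, by 0.60. Fyb, the adaptor ADAP that brings RAP1 to the membrane after T cell receptor signals, fell from 298, 327 and 261 CPM to 152, 152 and 156 CPM (log2 fold change -0.94, SE 0.0817, adjusted p = 1.45e-07 from edgeR). The cAMP-dependent RAP1 exchange factors Rapgef4 and Rapgef3 fell, with log2 fold changes of -1.16 and -1.14 at 5.03 to 11.9 CPM. Proteins that promote RAP1 signalling were thus found among both the higher and the lower genes.

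Of the focal adhesion and outside-in signalling list, 39 of 45 genes were tested, 18 were higher and 6 lower (median log2 fold change 0.18), so that 61.5% were called against the 47.7% of all genes. Nedd9, a docking protein phosphorylated after integrin binding, rose from 37.8, 36.5 and 42.9 CPM to 94.3, 95.3 and 113 CPM, a log2 fold change of 1.37 (SE 0.0894, adjusted p = 7.74e-09 from edgeR). Vav3, a signalling protein of the Vav family, rose by 1.07 and Git1, a scaffold of adhesion turnover, by 0.69 on the log2 scale. Rsu1, a partner of the ILK complex, Zyx, zyxin, and Tns1, tensin-1, fell by 0.48, 0.43 and 0.39 on the log2 scale. The other integrin ligands gave 5 higher and 8 lower of 29 tested of 53 genes (median -0.04), a share of 44.8% called, near that of all genes. Spp1, the matrix protein and cytokine osteopontin, rose from 18.2, 22.2 and 25.6 CPM to 64.8, 67.3 and 68.1 CPM (log2 fold change 1.60, SE 0.104, adjusted p = 7.07e-09 from edgeR). Nrros, which tethers latent TGF-β, rose by 1.23 and Tgfb1 by 0.82, while Lgals3, galectin-3, fell by 0.79, Tgfb3 by 0.67 and Lama5, a laminin α chain, by 0.61 on the log2 scale. For Tgfb1 the study itself reported unchanged mRNA by qPCR in Th1 cells treated with ALX-5407. Of 21 trafficking genes tested of 24, 5 were higher and 2 lower (median -0.06), and the 33.3% called lay under the share of all genes. The 2 lower genes became 6 without the third Th1 replicate and 4 with upper-quartile factors. Ehd1, Rab11fip5 and Snx17 had log2 fold changes of 0.56, 0.84 and 0.38, and the 2 lower genes, Stx4a and Rab11a, had -0.65 and -0.40.

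**Figure D5:**
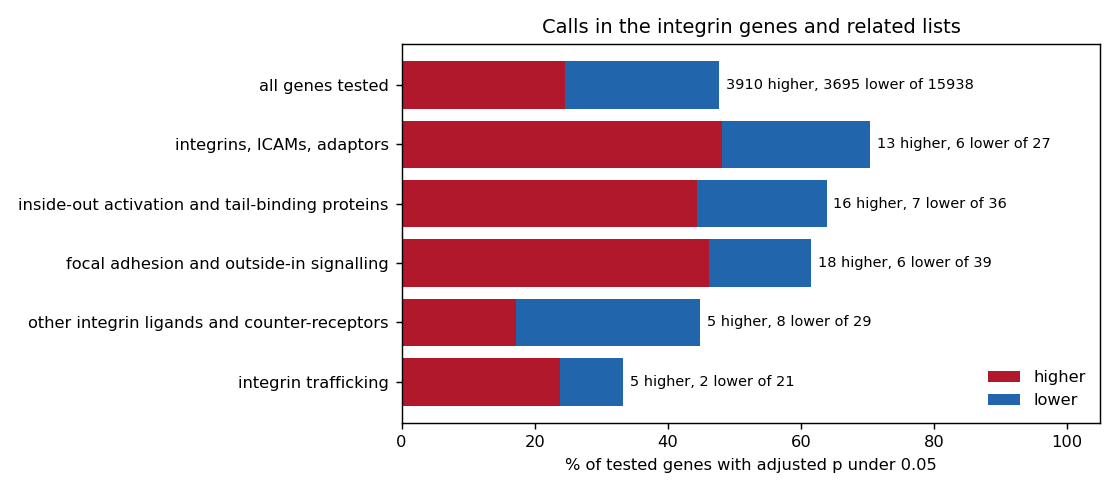
Percent of tested genes with an adjusted p-value under 0.05, higher (red) and lower (blue), for all genes tested, the integrin, ICAM and adaptor genes and 4 related lists, with the numbers beside each bar. The bars reach 47.7% for all genes, 70.4% for the integrin set, 63.9% for inside-out activation, 61.5% for focal adhesion, 44.8% for other ligands and 33.3% for trafficking.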

How the data were processed

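RNA was sequenced from 6 cultures, 3 a group. The authors deposited counts per gene and library as whole numbers, neither normalized nor pooled, with GRCm38 coordinates and gene lengths. The submitters' processing notes name fastp, HISAT2 2.0.5, featureCounts 1.5.0-p3 and mm10. The use of strand, of read pairs and of reads with several matches is not given in the sources used here. In every library more genes had a count of 2 (1629 to 2021) than of 1 (1084 to 1281), so low counts may not be single independent fragments. The labels describe capture on poly-T beads and the methods depletion of ribosomal RNA. GENCODE M21 holds 54409 of the identifiers, 98.3% with the same span, and all 36 genes studied matched.

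Counts were analysed with edgeR 4.0.16 in R 4.3.3 (filterByExpr, minimum count 10 and minimum total 15, TMM, quasi-likelihood test, Benjamini-Hochberg adjustment). SE is the log2 fold change over the square root of its F statistic. The procedure was tested on simulated counts. The groups and replicate numbers came from the sample titles. The libraries of each group were not copies of one another (chi-square of their counts divided by its degrees of freedom, 5.35 to 20.2). The gene set and the lists were chosen with earlier results of these data known, as were the motifs. Named genes were every member, with values in each culture for those called, and the 3 called genes with the smallest p-values in each direction of each list. Markers of other cells are named where their values stand beside a result. The 3 promoter sequences shown were picked with the calls known, and protein sequences were not used here. Alternatives were RLE and upper-quartile factors, DESeq2 1.42.0, limma-voom 3.58.1, 2 other low-count filters, a replicate block and each culture left out in turn.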

Additional observations from a re-analysis of the deposited data

How the results depend on the processing

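Of the 19 called genes, 15 (10 higher and 5 lower) were called in the same direction in all 13 alternatives. Itga5, Itga9, Itgae and Itgb5 each lost their call in 4 to 8 alternatives and kept their direction. The DEG count upward, 1 gene, was 0 with DESeq2, 0 with the filter of at least 1 CPM in 3 cultures, which removes Itga9, and 0 to 2 with a culture left out (0 without the second Th1 or the second ALX-5407 replicate, 2 without the third ALX-5407 replicate). The lower trafficking genes, 2, numbered 4 with upper-quartile factors and 2 to 6 with a culture left out, 6 of them without the third Th1 replicate, and the cause was not tested. The other counts of calls stayed within 1.5 times. DESeq2 called 3653 genes higher and 3533 lower over the whole table. The median log2 fold change of all genes tested lay between -0.0477 and 0.0153 in every alternative. The deviations of same-numbered cultures correlated at 0.0874, 0.0489 and 0.238, not all over 0.1, so the numbers were not taken as pairs. With the replicate block, 13 and 6 members were called as before, and 4071 genes were higher and 3833 lower over all genes. Of the 6 cultures, 4 correlated best with the culture of their own number. Itga1, Itga9, Itgae and Itgb4 had at most 72 counts in any culture, which limits their precision.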
